A study of Mus musculus with 13 samples.

Results

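A set of 10 genes that stand between a stray nucleic acid and the interferon response were followed in mouse oocytes after γ-irradiation. They are the adaptors Tmem173 and Mavs, the kinases Tbk1 and Ikbke, the transcription factor Irf3, the receptor chains Ifnar1 and Ifnar2, the receptor kinases Jak1 and Tyk2, and the nuclease Trex1. The 10 genes were taken by name from their place in the pathway, not by their values, and all 10 were found among the 49585 genes of the tables. Reads of all transcripts of a gene were added up, and each of the 10 passed the filter on low counts in every fit.

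On the mouse genome (GRCm38, GENCODE annotation) the adaptor genes lie on chromosome 18 from 35733679 to 35740554 (Tmem173) and on chromosome 2 from 131234063 to 131248025 (Mavs). The kinase genes lie on chromosome 10 from 121546455 to 121586787 (Tbk1) and on chromosome 1 from 131254343 to 131279606 (Ikbke), and Irf3 on chromosome 7 from 44997648 to 45002848. Both receptor genes are on chromosome 16, Ifnar2 from 91372783 to 91405589 and Ifnar1 from 91485238 to 91507441. Jak1 lies on chromosome 4 from 101152367 to 101265282, and Tyk2 and Trex1 on chromosome 9, from 21104068 to 21131243 and from 109057933 to 109059734. The values below are sums over whole genes, whose tables held between 1 transcript for Tmem173 and 13 for Irf3.

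The libraries hold RNA of oocytes from ovaries of 5-day-old (P5) CD-1 mice, an outbred strain. The ovaries were kept in culture overnight, irradiated with a caesium source, and taken before irradiation (0 h) or at 4 later times, the last of them 6 h after the dose and the others 1, 2.5 and 4 h after it. For a time point 4 ovaries were pooled, and the oocytes were separated from the other ovarian cells by trypsin and repeated centrifugation. With 0.5 Gy there were 8 libraries, with 2 replicates at 0, 1 and 4 h and 1 library each at 2.5 and 6 h. Replicate 1 belonged to a first generation of samples, and replicate 2, the 2.5 h library and the 6 h library to a second. With 0.2 Gy there was 1 library at each of the 5 times, all of the third generation, so dose and generation cannot be told apart. Among the libraries analysed here none is unirradiated after 0 h, so irradiation and time in culture cannot be told apart either.

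Cells carry receptors for nucleic acids that lie in the wrong place. DNA in the cytosol is reported through the adaptor STING, the product of Tmem173, and double-stranded RNA through the adaptor MAVS on mitochondria. Both adaptors bring the kinases TBK1 and IKKε, the product of Ikbke, to the transcription factor IRF3, which then switches on interferon genes. Secreted type I interferon binds the receptor chains IFNAR1 and IFNAR2, the attached kinases TYK2 and JAK1 phosphorylate STAT proteins, and the STATs with IRF9 switch on interferon-stimulated genes. TREX1 is an exonuclease that removes cytosolic DNA before it is sensed. Several of these proteins are present in resting cells and are switched by phosphorylation, which RNA does not show.

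The start sites of the receptor and sensing genes and of interferon-stimulated genes were searched for short motifs, and a few are shown. The promoter table of RefSeq (GRCm38.p6) held 10 start sites of 9 of the 10 genes, Tmem173 being the gene with no entry. The 250 bases before each start were searched on both strands for the core of the interferon-stimulated response element, which STAT and IRF factors bind and which was taken as GAAA repeated with any 2 bases between. No start site of the 9 genes held it, against 50% of 20 start sites of interferon-stimulated genes and 2.98% of all 32851 start sites. With 10 start sites and that share over all, finding none does not set the 9 genes apart from other genes. The second motif, TTCNNNGAA, is the site of STAT dimers. It lay before 1 start site of these genes, that of Ifnar2, and before 15% of those of interferon-stimulated genes and 7.02% of all. A match is a description of these letters and not a proven site. In the sequences, written 5′ to 3′ on the strand of the gene, capitals mark motif matches. Isg15 and Ifit1 are shown as interferon-stimulated genes with the response element, Ifnar2 for its single STAT match, and Ifnar1 and Irf3 as start sites with neither motif.
Isg15, chr4:156200819-156201068, minus strand: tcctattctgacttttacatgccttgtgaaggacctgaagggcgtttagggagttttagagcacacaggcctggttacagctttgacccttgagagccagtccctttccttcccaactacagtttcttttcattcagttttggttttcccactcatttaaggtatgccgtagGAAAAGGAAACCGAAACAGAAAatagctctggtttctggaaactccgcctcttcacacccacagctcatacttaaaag
Ifit1, chr19:34640639-34640888, plus strand: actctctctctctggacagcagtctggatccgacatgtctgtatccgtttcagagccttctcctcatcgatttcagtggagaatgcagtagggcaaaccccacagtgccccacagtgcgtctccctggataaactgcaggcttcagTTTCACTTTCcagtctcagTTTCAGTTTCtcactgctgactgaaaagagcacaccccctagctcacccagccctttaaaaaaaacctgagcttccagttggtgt
Ifnar1, chr16:91484965-91485214, plus strand: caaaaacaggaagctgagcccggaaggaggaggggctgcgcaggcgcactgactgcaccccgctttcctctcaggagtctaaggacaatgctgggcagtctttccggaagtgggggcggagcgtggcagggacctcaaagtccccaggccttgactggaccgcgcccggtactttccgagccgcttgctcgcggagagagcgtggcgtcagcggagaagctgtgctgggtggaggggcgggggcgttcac
Ifnar2, chr16:91372533-91372782, plus strand: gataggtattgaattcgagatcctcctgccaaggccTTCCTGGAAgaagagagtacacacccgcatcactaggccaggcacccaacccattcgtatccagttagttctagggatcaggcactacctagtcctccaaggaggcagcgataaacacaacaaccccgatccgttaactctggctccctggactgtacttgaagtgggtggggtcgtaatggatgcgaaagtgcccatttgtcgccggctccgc
Irf3, chr7:44997398-44997647, plus strand: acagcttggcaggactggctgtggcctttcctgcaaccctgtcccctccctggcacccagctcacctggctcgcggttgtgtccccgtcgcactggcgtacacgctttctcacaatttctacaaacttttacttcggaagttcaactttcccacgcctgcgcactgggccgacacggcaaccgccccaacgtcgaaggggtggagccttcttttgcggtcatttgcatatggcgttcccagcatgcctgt

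The element stands on the coding strand of Isg15 as 3 overlapping copies from base -78 to base -57. Ifit1 has 2 copies on the opposite strand, from -104 to -95 and from -85 to -76, and the match of Ifnar2 lies from -214 to -206. No match to a pair of CATG cores with any 6 bases between, as found in sites of the p53 family, lay before the 9 genes, and 0.490% of all start sites held one.

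Depth ranged from 15709549 to 30430104 estimated reads per library, the lowest being replicate 2 of 0.5 Gy at 0 h. All 9 oocyte markers were read in every library, and their summed level lay between 577 and 835 TPM (salmon's level per transcript length). Markers of other ovarian cells were present as well. Granulosa markers summed to 394 to 880 TPM, stromal markers to 196 to 340 TPM, leukocyte markers to 8.82 to 24.2 TPM and endothelial markers to 6.42 to 12.4 TPM. Globins of red blood cells summed to 1353 to 8205 TPM. In such samples fewer cells of a type and less RNA per cell cannot be told apart, and which cells carried the RNA of the 10 genes was not tested.

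All 10 genes were read in every one of the 13 libraries, at very different levels per length. Jak1 was the highest, with a mean of 55.9 ± 17.3 TPM (SD, n = 13), and Ikbke the lowest, with 0.526 ± 0.234 TPM. Between them lay Irf3 with 26.5 ± 4.63 TPM, Tbk1 with 16.2 ± 4.90 TPM, Ifnar1 with 9.56 ± 2.30 TPM and Ifnar2 with 9.03 ± 2.90 TPM. Mavs had 3.43 ± 0.549 TPM, Trex1 2.24 ± 0.656 TPM, Tyk2 2.06 ± 0.636 TPM and Tmem173 1.49 ± 0.385 TPM. Ifnar1 and Ifnar2 did not differ beyond their spread, with Ifnar1 higher in 9 of 13 libraries. Trex1, Tyk2 and Tmem173 also lay within their spread of each other in this order, Trex1 being above Tyk2 in 7 of 13 libraries and Tyk2 above Tmem173 in 9 of 13. Every other neighbour in the order was separated by more than 1 SD of the log2 difference.

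The order of the middle genes rests on short annotated fragments. A transcript of 369 nt, Irf3-211, took 48.6% of the TPM of Irf3 on average but 18.9% of its reads. With transcripts of at least 1000 nt alone, an alternative chosen after seeing the data, Irf3 fell from the second to the sixth place with 3.12 TPM and Tbk1 from the third to the fourth with 5.00 TPM. Ifnar1 then had 6.17 TPM, Ifnar2 5.64 TPM, Mavs 3.34 TPM and Jak1, still first, 26.5 TPM.

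**Figure D1:**
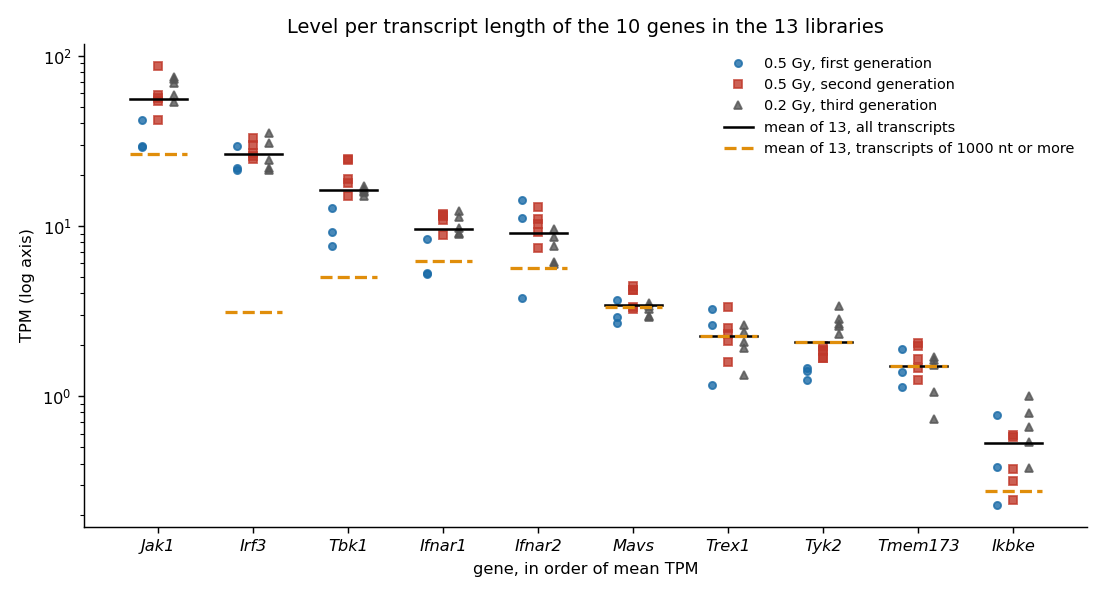
Level of the 10 genes in TPM on a log axis, with 1 point per library by dose and generation, the mean of the 13 libraries over all transcripts as a black line and over transcripts of at least 1000 nt as a dashed line. Jak1 is highest and Ikbke lowest under both means, and the gap between the means is widest for Irf3, 26.5 against 3.12 TPM.

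Whether the genes that sense nucleic acids and receive interferon change after 0.5 Gy was asked first by setting the 4 late libraries (2.5, 4 and 6 h) against the 4 early ones (0 and 1 h). None of the 10 genes was called, a call being an adjusted p below 0.05 with a log2 fold change beyond 1 (edgeR's quasi-likelihood test with Benjamini-Hochberg adjustment over all genes). In the same comparison 29 of 22588 genes were called, or 0.128%, all of them higher late. DESeq2 called none of the 10 either, and 200 of the 49585 genes, the number it was given in every comparison. Of the 10, 5 had a higher and 5 a lower estimate, with a median log2 fold change of 0.02 against -0.02 over all genes tested. For 8 of the 10 the 95% interval lay inside a doubling or halving. For Ikbke (-1.38 to 0.64) and Trex1 (-0.01 to 1.38) it did not, so changes of that size were not excluded for these. The pooled times are not replicates of a condition. These intervals thus bound a mean over several times, and a larger change at a single time was not excluded for any of the 10.

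Between 6 h and 0 h of 0.5 Gy the estimates of the 10 genes had a median of 0.01, with 5 higher and 5 lower. None was called, and edgeR called 0 of 28468 genes (0%), with 1691 genes at an unadjusted p below 0.05. DESeq2 called 139 genes there and none of the 10. The comparisons of 1, 2.5 and 4 h with 0 h gave the same count of 0 among the 10 genes and 0% of all genes by edgeR, with 1133, 1590 and 1658 genes at an unadjusted p below 0.05 and 20, 83 and 124 called by DESeq2. With 1 library at 6 h its spread was taken from the replicated times, and standard errors of the 10 genes ran from 0.35 to 0.76 on the log2 scale.

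**Figure D2:**
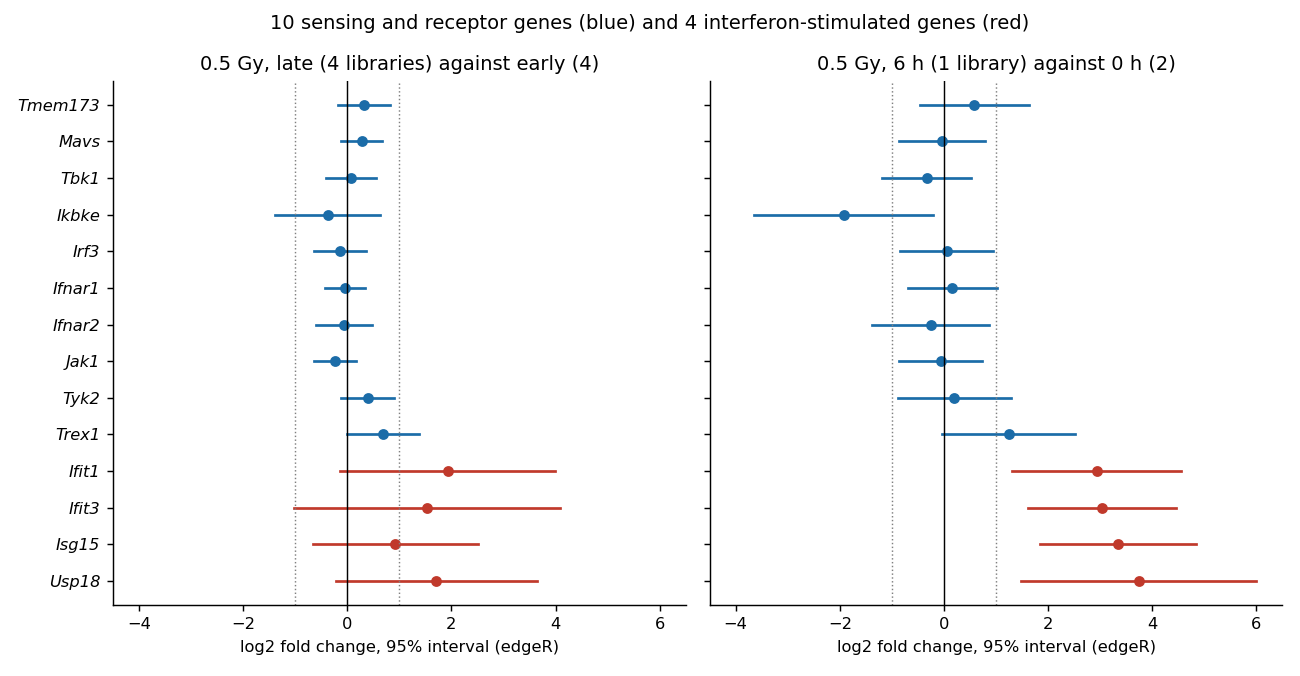
Log2 fold change (horizontal axis) with its 95% interval from edgeR for the 10 genes in blue and 4 interferon-stimulated genes in red, for late against early and for 6 h against 0 h of 0.5 Gy. The dotted lines mark a doubling and a halving. The estimates of the 10 genes lie between -0.37 and 0.69 late against early and between -1.93 and 1.24 at 6 h, where those of the 4 interferon-stimulated genes lie between 2.94 and 3.74.

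Tmem173 encodes STING, the adaptor of cytosolic DNA sensing. In CPM (counts scaled for library size and not for length), Tmem173 with 0.5 Gy had 8.53 and 9.16 before irradiation, 9.42 and 9.66 after 1 h, 11.9 after 2.5 h, 12.5 and 8.79 after 4 h and 12.8 after 6 h. With 0.2 Gy the levels were 4.66, 10.5, 10.6, 6.46 and 10.4 CPM in the order of the times, 0 h first. Of the 4 late libraries of 0.5 Gy 3 lay above all early ones, and replicate 2 at 4 h lay among them. Late libraries differed from early ones by 0.32 on the log2 scale (SE 0.23, edgeR adjusted p = 0.711). Against the 0 h library of its own generation Tmem173 was higher in 9 of 10 libraries, but 4 of these 9 share the 0.2 Gy library at 0 h, the lowest of all. Both 6 h libraries, 10.4 and 12.8 CPM, lay above the 3 libraries at 0 h, 4.66 to 9.16 CPM, and the log2 fold change over both doses was 0.74 (SE 0.33, unadjusted p = 0.0429, edgeR adjusted p = 0.991).

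Among the 10 genes, 2 did not overlap between 6 h and 0 h of both doses, Tmem173 and Ikbke, where 16.5% of 18357 genes did not. In that fit over 13 libraries none of the 10 was called and 2 of 28493 genes were (0.00702%), with 1423 at an unadjusted p below 0.05 and 104 called by DESeq2. At 4 h over both doses none of the 10 and 1 of 28493 genes (0.00351%) was called.

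Mavs, the adaptor of RNA sensing, held between 21.7 and 37.4 CPM over the 13 libraries, with a median of 25.6 CPM. Its late libraries of 0.5 Gy averaged 31.2 ± 4.74 CPM (SD, n = 4) and its early ones 25.7 ± 2.99 CPM (n = 4). The ranges overlapped, and the log2 fold change was 0.28 (SE 0.18, edgeR adjusted p = 0.685). A transcript that encodes the full 503 codons, Mavs-201, took 72.0% of its TPM.

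Tbk1, the kinase shared by both adaptors, ranged from 42.9 to 86.5 CPM with a median of 53.4 CPM. The highest library was replicate 2 of 0.5 Gy at 0 h, with 86.5 CPM, where replicate 1 at the same time had 54.1 CPM, so the pair before irradiation spanned most of the range. Late and early libraries of 0.5 Gy averaged 63.7 ± 12.1 and 60.0 ± 18.0 CPM (SD, n = 4 each), a log2 fold change of 0.08 (SE 0.22). The sign of this value was lost when transcripts that encode no protein were left out, where it was -0.03.

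Ikbke encodes IKKε, a relative of TBK1 that immune cells can induce. It was the gene with the fewest reads, 26 to 167 per library. With 0.5 Gy Ikbke had 4.65 and 3.05 CPM before irradiation, 2.87 and 2.12 CPM after 1 h, 3.89 CPM after 2.5 h, 1.95 and 3.02 CPM after 4 h and 0.976 CPM after 6 h. With 0.2 Gy it had 3.89, 5.10, 3.33, 2.67 and 2.45 CPM in the order of the times. In CPM the 6 h library of 0.5 Gy was the lowest of all 13, and that of 0.2 Gy the lowest of its dose. In TPM the 6 h library of 0.5 Gy, at 0.373, lay above 3 other libraries of that dose, 0.243 TPM for replicate 2 at 1 h and 0.229 and 0.317 TPM at 4 h. At 6 h the log2 fold change was -1.93 with 0.5 Gy (SE 0.76, unadjusted p = 0.0322, edgeR adjusted p = 0.826) and -1.34 over both doses (SE 0.51, unadjusted p = 0.0218, edgeR adjusted p = 0.988). The value over both doses was -0.84 without the 6 h library of 0.5 Gy and -1.89 without that of 0.2 Gy. Late against early with 0.5 Gy it was -0.37 (SE 0.46). Its 2 longest coding transcripts took from 0 to 60.0% and from 0 to 71.2% of the reads of Ikbke.

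Irf3, the transcription factor that both adaptors activate, had its highest CPM at 1 h in each of the 3 generations. With 0.5 Gy Irf3 had 22.2 and 24.9 CPM before irradiation, 33.9 and 38.8 CPM after 1 h, 32.1 CPM after 2.5 h, 20.6 and 32.2 CPM after 4 h and 23.6 CPM after 6 h. With 0.2 Gy it had 23.5, 35.01, 25.7, 28.6 and 22.6 CPM in the order of the times. The 3 libraries at 1 h were above the 3 at 0 h, a feature picked out after seeing the values. Of the 10 genes 2 did not overlap there in CPM, Irf3 and Tmem173, against 6.22% of 18357 genes, and in TPM 1, Irf3, against 5.58% of 17111 genes. Granulosa markers were without overlap as well, with a summed level of 394 to 538.8 TPM at 0 h and 539.4 to 722 TPM at 1 h, and their part in the values of Irf3 was not tested. At 1 h with 0.5 Gy the log2 fold change was 0.65 (SE 0.33, unadjusted p = 0.0760, edgeR adjusted p = 1). Irf3 shares 1.69% of its stretches of 30 bases, the read length, with its neighbour Bcl2l12.

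**Figure D3:**
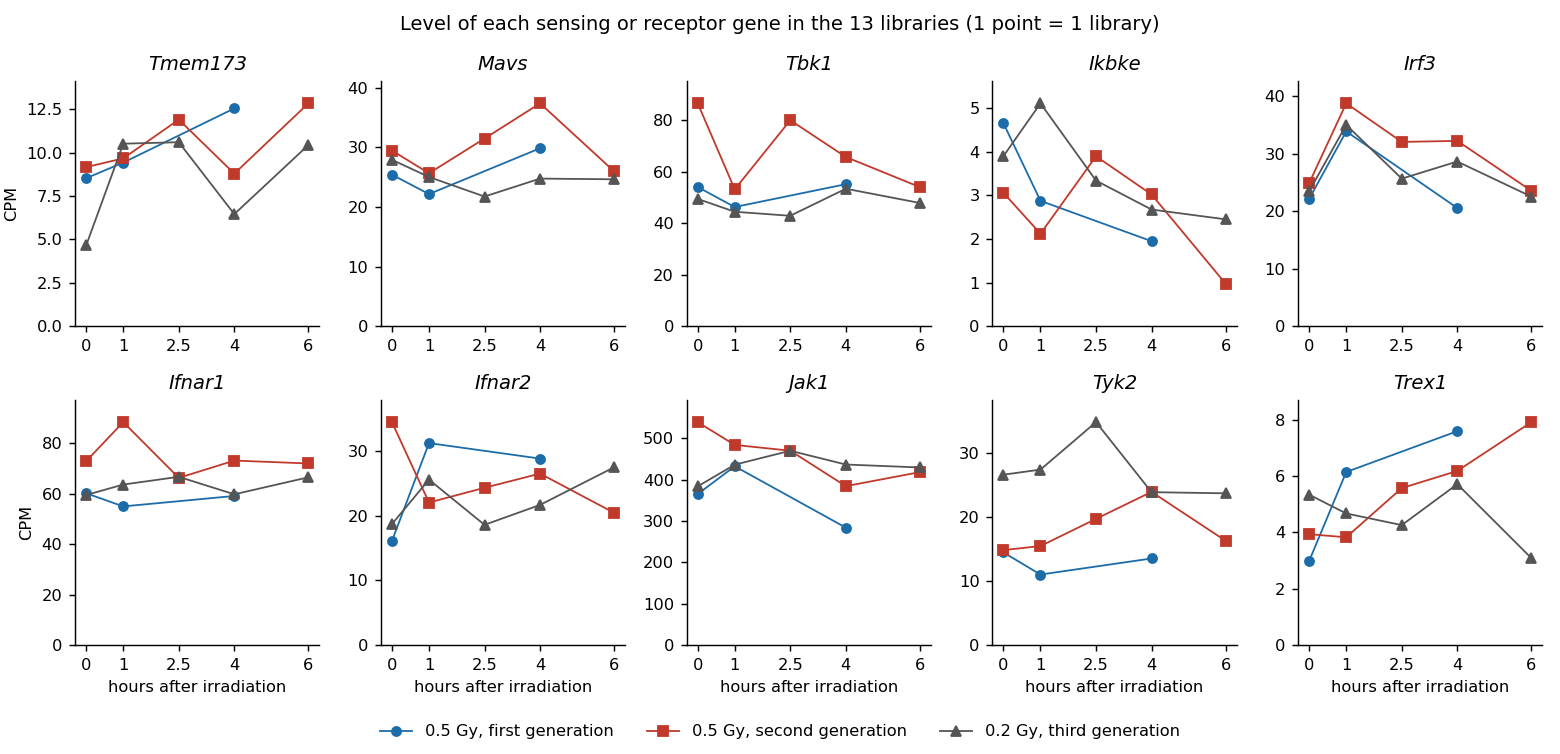
CPM of each of the 10 genes (vertical axis from 0) against hours after irradiation, with 1 point per library and lines joining libraries of a dose and generation. Irf3 is highest at 1 h in each generation, Ikbke lowest at 6 h with 0.5 Gy (0.976 CPM), and the Tyk2 line of 0.2 Gy runs above those of 0.5 Gy at every time but 4 h.

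Ifnar1, the other chain of the receptor, had the narrowest range of the 10 genes in CPM, with 55.0 to 88.4 CPM over the 13 libraries and a median of 66.3 CPM. In TPM its highest library was 2.35 times its lowest, a wider range than those of Mavs (1.64) and Irf3 (1.66). Its log2 CPM spanned 0.68, where the median span of 12831 genes with a mean of at least 5 CPM was 1.12. Late against early with 0.5 Gy, its log2 fold change was -0.04, with a 95% interval from -0.42 to 0.35.

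Ifnar2, the chain with the higher affinity for interferon, had 16.1 and 34.4 CPM before irradiation, 31.2 and 22.0 CPM after 1 h, 24.3 CPM after 2.5 h, 28.8 and 26.5 CPM after 4 h and 20.4 CPM after 6 h with 0.5 Gy. With 0.2 Gy Ifnar2 had 18.7, 25.5, 18.6, 21.6 and 27.4 CPM. The lowest and the highest of the 13 values were the 2 replicates of 0.5 Gy before irradiation. Late libraries of 0.5 Gy differed from early ones by -0.06 on the log2 scale (SE 0.25, edgeR adjusted p = 0.964), with a 95% interval from -0.59 to 0.48. Ifnar2 shares 8.53% of its 30-base stretches with the read-through gene Gm21970.

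Ifnar2 is known to give a long form that spans the membrane and a short form that lacks the part inside the cell. In the annotation the long form is Ifnar2-201, with 513 codons in 3047 nt, and the short ones are Ifnar2-202 with 247 codons and Ifnar2-203 with 248 codons. Of the TPM of these 3 transcripts the short forms took a median of 84.5% over the 13 libraries, with a lowest of 74.0% and a highest of 92.7%. Counted in estimated reads, which grow with length, the median was 66.3% and the range 46.3 to 83.1%. Late libraries of 0.5 Gy had 84.5 to 92.7% of TPM and early ones 75.1 to 90.0%, so the groups overlapped. The 3 transcripts share their first exons, so the split rests on salmon's assignment of reads of 30 bases and no test was run on it. A fragment of 384 nt, Ifnar2-205, took another 31.8% of all Ifnar2 TPM.

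**Figure D4:**
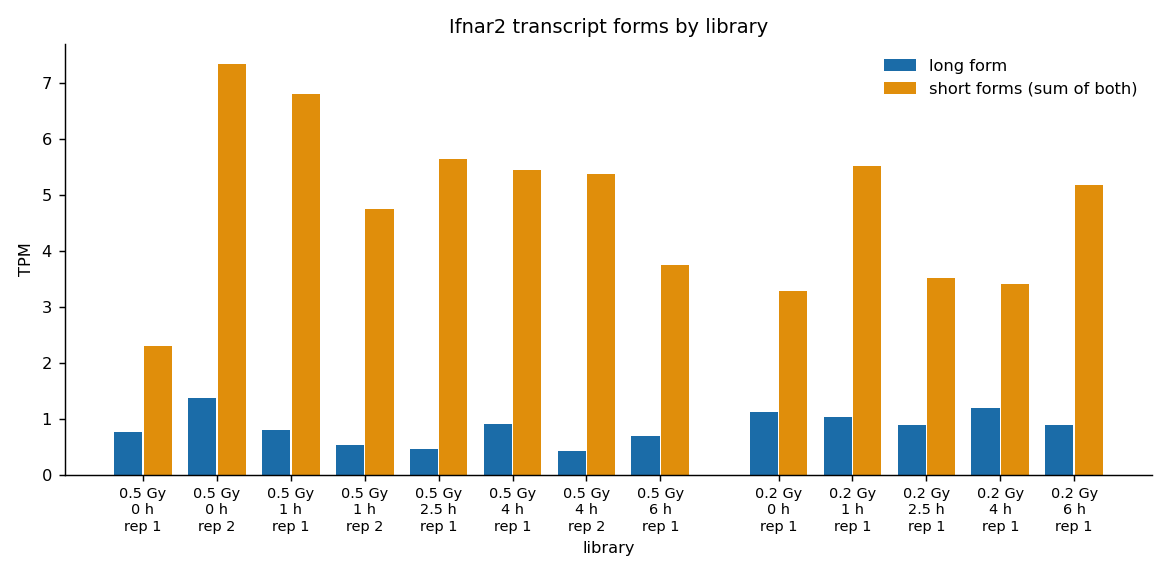
TPM of the long form of Ifnar2 (blue) and the sum of its 2 short forms (orange) in each of the 13 libraries, bars from 0. The short forms are above the long form in every library, between 74.0 and 92.7% of the sum of both.

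Jak1, the kinase on the IFNAR2 chain and shared with many other cytokine receptors, was read deepest, with 7293 to 14279 reads per library. With 0.5 Gy Jak1 averaged 455 ± 74.2 CPM early and 389 ± 78.5 CPM late (SD, n = 4 each), and the ranges overlapped. The log2 fold change was -0.23 (SE 0.18, edgeR adjusted p = 0.739). The lowest of the 13 values was replicate 1 at 4 h, with 284 CPM, and the highest replicate 2 at 0 h, with 539 CPM.

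Tyk2, the kinase on the IFNAR1 chain, was the gene that differed most between the 2 doses. With 0.5 Gy Tyk2 had 14.5 and 14.9 CPM before irradiation, 11.04 and 15.5 CPM after 1 h, 19.8 CPM after 2.5 h, 13.6 and 24.0 CPM after 4 h and 16.3 CPM after 6 h. With 0.2 Gy it had 26.7, 27.5, 34.9, 23.9 and 23.8 CPM in the order of the times. Only replicate 2 of 0.5 Gy at 4 h reached the 0.2 Gy range, and the difference was already there before irradiation. In CPM none of the 10 genes was free of overlap between the doses, as 0.812% of 18357 genes were. In TPM the 2 doses of Tyk2 did not overlap, with 1.23 to 1.98 for 0.5 Gy and 2.31 to 3.36 for 0.2 Gy. Tyk2 was the 1 gene of the 10 without overlap on that scale, against 0.754% of 17111 genes. In a comparison added after seeing the data, the dose term of the fit over 13 libraries, the log2 difference was 0.74 (SE 0.18, 95% interval 0.34 to 1.13, unadjusted p = 0.00137, edgeR adjusted p = 0.257), and 1 of 28493 genes was called (0.00351%). DESeq2 gave Tyk2 a log2 difference of 0.71 with an adjusted p of 0.0221 there, below the fold needed for a call. The difference has no test that separates dose from generation. Leukocyte markers moved the other way, with a summed level of 13.4 to 24.2 TPM with 0.5 Gy and 8.82 to 15.2 TPM with 0.2 Gy, and their part in the result was not tested. Tyk2 shares 7.53% of its 30-base stretches with the antisense gene 1700084C06Rik, which had 0 to 0.701 CPM.

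Late against early with 0.5 Gy, Tyk2 had a log2 fold change of 0.39 (SE 0.23, edgeR adjusted p = 0.653). With 0.2 Gy, where late means 4 and 6 h, it was -0.18 (SE 0.30), and the difference between the doses was -0.54 (SE 0.37, edgeR adjusted p = 0.715).

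Trex1, the nuclease that clears cytosolic DNA, was hard to measure apart from its neighbour. The gene lies inside the annotated span of Atrip, a partner of the checkpoint kinase ATR, and 97.7% of its 30-base stretches also occur in Atrip transcripts on the same strand. The reads of Trex1 thus rest largely on how salmon divided shared reads. The sources differ on whether reads were single or in pairs, and with pairs the share of fragments that fit both genes can be lower than that of 30-base stretches. With 0.5 Gy Trex1 was given 2.99 and 3.94 CPM before irradiation, 6.15 and 3.83 CPM after 1 h, 5.57 CPM after 2.5 h, 7.60 and 6.18 CPM after 4 h and 7.92 CPM after 6 h. With 0.2 Gy it was given 5.34, 4.67, 4.26, 5.72 and 3.09 CPM. The late libraries of 0.5 Gy were above the early ones save replicate 1 at 1 h. The log2 fold change was 0.69 late against early (SE 0.32, unadjusted p = 0.0516, edgeR adjusted p = 0.555) and 1.24 at 6 h (SE 0.57, unadjusted p = 0.0561, edgeR adjusted p = 0.826).

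The neighbour had higher values late as well. Atrip had 22.4 to 25.0 CPM in the early and 33.3 to 37.2 CPM in the late libraries of 0.5 Gy, and 29.4 to 37.5 CPM with 0.2 Gy. The sum of both genes, which does not depend on the division, averaged 28.3 ± 2.10 CPM early and 41.6 ± 1.96 CPM late (SD, n = 4 each), and the late values, 38.8 to 43.4 CPM, lay above all early ones, 26.3 to 31.1 CPM. Of 18357 genes 5.61% did not overlap in this comparison, and of the 10 genes taken alone none. With 0.2 Gy the sum was 34.1 to 41.9 CPM. This was seen after the values and was given no test.

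With 0.2 Gy, 4 and 6 h against 0 and 1 h, none of the 10 genes was called, where 13 of 28162 genes were (0.0462%). Log2 fold changes ran from -0.81 for Ikbke (SE 0.55) to 0.15 for Tmem173 (SE 0.41). For 3 of the 10 genes, Mavs, Ikbke and Tyk2, both late values lay below both early ones, against 44% of 18357 genes with no overlap in either direction. The difference of the late change between doses was tested in the same fit of 11 libraries without those at 2.5 h. None of the 10 differed, where 9 of 28162 genes did (0.0320%). The largest estimate was that of Trex1, -0.96 (0.2 Gy minus 0.5 Gy, SE 0.56, edgeR adjusted p = 0.669), with the same limit of shared reads. It was -1.51 without the 4 h library of 0.2 Gy and -0.58 without the 6 h library of 0.2 Gy. The 95% intervals of the difference stayed within 1 on the log2 scale for 3 of the 10 genes, so for the other 7 a difference of that size was not excluded.

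Downstream of the receptor, 4 interferon-stimulated genes served as the readout of the pathway. They are Ifit1 and Ifit3, of a family that binds foreign RNA, Isg15, a ubiquitin-like modifier, and Usp18, which removes it and dampens the receptor. Usp18 had 1.05 and 6.18 CPM before irradiation, 2.14 and 8.40 CPM after 1 h, 4.56 CPM after 2.5 h, 2.77 and 4.94 CPM after 4 h and 46.2 CPM after 6 h with 0.5 Gy, and 2.98, 2.47, 3.59, 4.53 and 11.04 CPM with 0.2 Gy. Ifit1 had 25.8 CPM at 6 h of 0.5 Gy and 0.446 to 4.68 CPM in the 7 other libraries of that dose. In all 4 genes the 6 h library of 0.5 Gy was the highest of the 13. It is 1 library. The paper had already named these genes for a steep rise at the last time point of the same data. Their peak in this library and the DESeq2 calls below are therefore not independent results. For Usp18 the log2 fold change against 0 h was 3.74 (SE 1.00, edgeR adjusted p = 0.647), for Ifit1 2.94 (SE 0.72), for Ifit3 3.04 (SE 0.63) and for Isg15 3.35 (SE 0.66), with adjusted p from 0.491 to 0.647. DESeq2, with shrunken fold changes, called all 4, with an adjusted p of 0.00257 for Usp18. In the same library the 10 upstream genes ranged from 0.976 CPM for Ikbke to 418 CPM for Jak1, and in CPM 3 of the 10 lay outside the range of the other 12 libraries, Ikbke below it and Tmem173 and Trex1 above it, against 14.1% of 18357 genes. In TPM 2 did, Tmem173 and Trex1, against 12.5% of 17111 genes, and Ikbke lay inside the range.

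The wider pathway was read in 9 lists of 114 genes by role, 99 of which were tested at 6 h of 0.5 Gy. None was called by edgeR, 20 had an unadjusted p below 0.05, all of them higher, and DESeq2 called 9. Over all 28468 genes tested by edgeR 5.94% had an unadjusted p below 0.05, in either direction. Ifit1, Ifit3, Isg15 and Usp18, already known to be high in this library, are in these lists and among the DESeq2 calls. The paper had also looked at other interferon-stimulated genes in the same data and found many of them to behave alike. The values of that list below are therefore not independent results. Of 23 interferon-stimulated genes tested 10 had an unadjusted edgeR p below 0.05. A higher estimate was found for 21 of the 23, with a median log2 fold change of 1.06. Of the 15 sensors 13 had a higher estimate, with a median of 0.35, and of the 17 cofactors and adaptors 11, with a median of 0.10. The median was 0.21 for 8 nucleases and editing enzymes, 0.19 for 9 other receptor chains and kinases, 0.35 for 7 signal transducers, 0.16 for 12 negative regulators and 0.47 for 6 transcription factors. The median over all genes tested was 0, and that of the 10 sensing and receptor genes 0.01. These are descriptions of 1 library against 2.

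**Figure D5:**
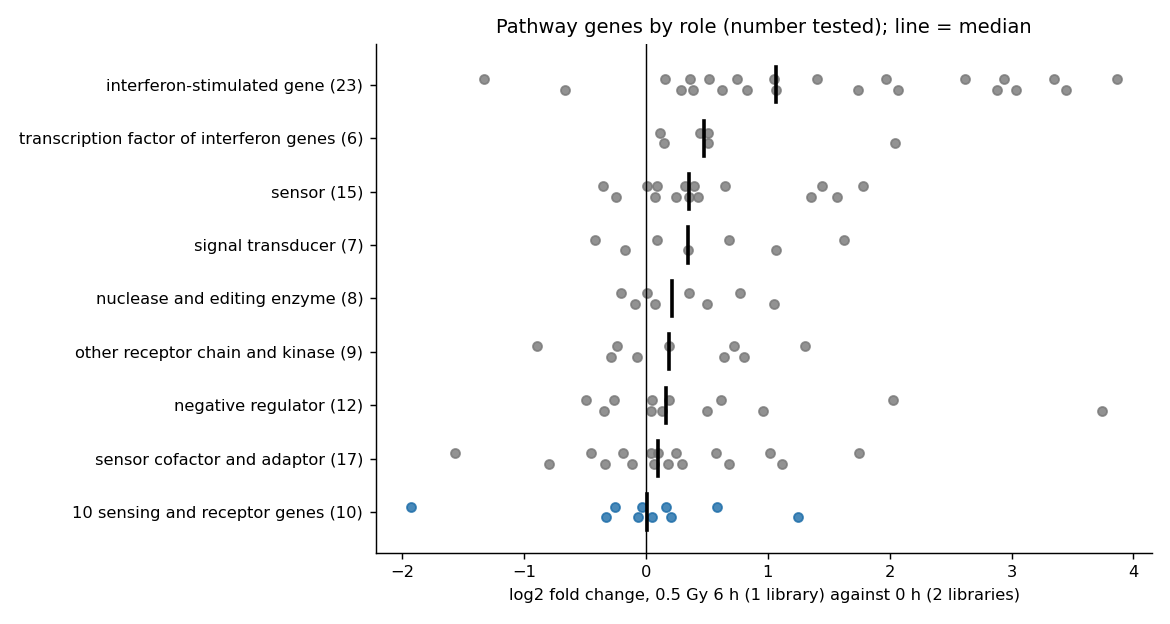
Log2 fold change at 6 h against 0 h of 0.5 Gy for pathway genes by role, 1 point per gene and a line at the median, with the 10 sensing and receptor genes in blue at the bottom. Interferon-stimulated genes have a median of 1.06 and the 10 genes one of 0.01, with Ikbke at -1.93 and Trex1 at 1.24 as their ends.

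The most abundant gene of each list stood as follows over the 13 libraries. Rnaseh2c, a subunit of the enzyme that removes RNA from DNA, had 84.1 ± 17.1 TPM, and Bst2, an interferon-stimulated membrane protein, 106 ± 31.6 TPM. Socs2, a feedback inhibitor of cytokine receptors, had 64.2 ± 15.0 TPM, Il6st, the gp130 receptor chain, 34.1 ± 12.3 TPM, and Stat3 25.6 ± 7.82 TPM (SD, n = 13). Irf2 had 24.0 ± 4.49 TPM, the TBK1-binding adaptor Tank 16.1 ± 3.29 TPM and the sensor Ddx41 8.24 ± 1.72 TPM. None of these was called in a comparison of 0.5 Gy, and at 6 h their log2 fold changes ran from -0.49 for Socs2 to 0.77 for Rnaseh2c.

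The interferons themselves were at the edge of detection. The 17 interferon genes together had 7 to 98 reads per library, and 16 of them never passed 20 reads. Ifnb1, the interferon that IRF3 switches on, had 0 to 9 reads, with 9 at 6 h of 0.5 Gy. The highest was Ifnl2, an interferon that uses a receptor other than IFNAR, with 0 and 0 reads before irradiation, 7 and 0 after 1 h, 16 after 2.5 h, 15 and 36 after 4 h and 56 after 6 h of 0.5 Gy, and 2 to 14 reads with 0.2 Gy. Late libraries of 0.5 Gy had more reads of Ifnl2 than early ones in 4 of 4, and edgeR gave no call (adjusted p = 0.259) where DESeq2 did (adjusted p = 0.0302). Ifnl2 was the 1 interferon gene of 17 that edgeR tested there, and it passed the filter on low counts through the late libraries alone. Neither p-value is therefore support for a change. Of 18357 genes with a mean of at least 1 CPM 5.61% did not overlap in this comparison, and Ifnl2 was too low to be among those counted. Ifnl2 shares 45.8% of its 30-base stretches with other genes, nearly all with its copy Ifnl3.

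As a description of likeness, the 3 genes of the 10 with the widest range and a mean of at least 5 CPM were set against 11651 protein-coding genes over the 13 libraries. Tyk2 went most closely with Cit (Pearson r = 0.91), Atic (0.88) and Ddx27 (0.88). Tmem173 went with Sumf2 (0.85), Arrdc2 (0.83) and Nat8f4 (0.81), and Trex1 with Pnpla7 (0.93), Hdac11 (0.86) and Tspan7 (0.84). Within the 8 libraries of 0.5 Gy the values were 0.77, 0.74 and 0.84 for Tyk2, 0.68, 0.55 and 0.72 for Tmem173 and 0.97, 0.87 and 0.84 for Trex1. The libraries share dose, generation and depth, and with this many genes compared the gene at the 100th place still had r = 0.72 with Tyk2.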

How the data were processed

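RNA of mouse oocytes was sequenced as reads of 30 bases from SMARTER cDNA, which keeps no strand. The authors deposited, per library, estimated counts and TPM per transcript, made with salmon against the Ensembl mouse transcriptome (GRCm38). Estimated counts were summed per gene with the GENCODE annotation, after which 402 of 130740 transcripts without a gene (at most 0.495% of reads) were left out, and were rounded to whole numbers. TPM as deposited by the authors was summed per gene. The authors' merged normalized counts and their tables of fold changes and p-values were not used.

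Counts were tested with edgeR 4.0.16 (R 4.3.3, TMM scaling, filter on low counts by the fit's design, quasi-likelihood test), with Benjamini-Hochberg adjustment over all genes. A call needed an adjusted p below 0.05 and an absolute log2 fold change over 1. Comparisons of 0.5 Gy used 8 libraries, those of the late change by dose 11, and those over both doses all 13 with dose as a term. Labels do not state that replicates came from separate pools of animals beyond their generation, so p-values measure the spread between these samples, which may be technical. log2 CPM was taken with a prior count of 2. DESeq2 1.42.0, other size factors, no filter, a generation block, protein-coding transcripts alone and leaving out each library were tried, and the fits were tested on simulated data. Levels of transcripts, motifs and shared 30-base stretches were read with Python 3.11.15 (pandas 2.3.3, numpy 2.4.6), figures with matplotlib 3.10.9. Reads carry no molecular identifiers, and intervals and spreads rest on differences between these libraries. With 0.5 Gy the replicates differ in generation, so counting error, library error and differences between samples cannot be told apart.

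The 10 genes, the lists and the tests were chosen with earlier results of these data known. Named were all 10 genes, the most abundant gene of each pathway list, any listed gene called by edgeR (none), 4 interferon-stimulated genes, and the 3 genes most like each of the 3 most variable members. Atrip, Ifnl2, Gm21970, Bcl2l12 and 1700084C06Rik were named after their values or sequences were seen.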

Additional observations from a re-analysis of the deposited data

How the results depend on the processing

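None of the 10 genes was called in any of the 10 comparisons under any of the 159 alternatives run, leaving out each library included. Of 27 log2 fold changes of these genes followed through 416 alternatives, 384 kept their sign and 32 changed it, and none met both conditions of a call. In 8 of the 416 the value moved to the other side of a log2 fold change of 1, all of Ikbke or Trex1. The adjusted p was below 0.05 in 1, that of Tyk2 for 0.2 against 0.5 Gy with DESeq2 (0.0221), where the other alternatives gave 0.0802 to 0.756. With protein-coding transcripts alone the late change of 0.5 Gy became -0.025 for Tbk1 and 0.035 for Ifnar1, the 6 h change over both doses 0.076 for Irf3, and the difference between doses 0.020 for Ikbke. Without a filter the late change became 0.013 for Ifnar1, and the 6 h change over both doses 0.012 for Irf3 and 0.010 for Jak1. Leaving out each library moved the late change of 0.5 Gy between -0.047 and 0.32 for Tbk1, -0.26 and 0.015 for Irf3, -0.13 and 0.12 for Ifnar1 and -0.22 and 0.12 for Ifnar2. The 6 h change over both doses then lay between -0.063 and 0.031 for Irf3, -0.25 and 0.48 for Ifnar2, -0.15 and 0.20 for Jak1, -0.10 and 0.13 for Tyk2, and -0.40 and 0.96 for Trex1, lowest without the 6 h library of 0.5 Gy. For Ikbke the late change of 0.5 Gy lay between -0.68 and -0.10, the 6 h change over both doses between -1.89 and -0.84 and the difference between doses between -0.46 and 0.30. For Trex1 the difference between doses lay between -1.51 and -0.58 and the late change with 0.2 Gy between -0.71 and 0.20. The cause was not tested. TPM levels moved beyond 1 SD with transcripts of at least 1000 nt for Jak1, Irf3, Tbk1, Ifnar1, Ifnar2 and Ikbke.

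Counts over all genes depended on the tool, and the order here is 1, 2.5, 4 and 6 h of 0.5 Gy against 0 h, late against early with 0.5 Gy and with 0.2 Gy, the difference between doses, 4 h and 6 h over both doses, and 0.2 against 0.5 Gy. The main counts were 0, 0, 0, 0, 29, 13, 9, 1, 2 and 1. Without a filter they were 30, 56, 80, 78, 58, 32, 22, 24, 15 and 52, and with DESeq2 20, 83, 124, 139, 200, 147, 131, 120, 104 and 222. With DESeq2's size factors 3 genes were called at 4 h over both doses. With protein-coding transcripts alone the counts were 0 and 0 for 0.2 Gy and for the difference between doses, and 2 and 1 at 4 and 6 h over both doses. Leaving out each library gave 0 to 4, 0 to 7, 0 to 10, 0 to 6, 10 to 37, 1 to 18, 0 to 13, 0 to 5, 0 to 4 and 0 to 5.

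Replicate numbers stand for generations. Over 28493 genes same-numbered samples deviated together weakly, with r = 0.13, 0.078 and 0.11 between 0 and 1 h, 0 and 4 h and 1 and 4 h. The main fits hold no term for generation within 0.5 Gy, and these r do not exclude a shared shift of single genes. In CPM Mavs, Tbk1, Irf3, Ifnar1, Jak1 and Tyk2 were higher in the second generation at each of 0, 1 and 4 h. Tmem173, Ikbke, Ifnar2 and Trex1 were not. The share of all genes higher in this way was not counted, so this does not set these genes apart from others. The 2.5 and 6 h libraries of 0.5 Gy are of the second generation alone, so the main fits mix generation with time. With generation as a block the counts were 1, 6 and 7 at 2.5, 4 and 6 h of 0.5 Gy, 18 late against early and 9 at 4 h over both doses. In place of 0.2 against 0.5 Gy the block allows only the third generation (all 0.2 Gy libraries) against the mean of the other two, which gave 39 and is no comparison of dose alone. None of the 10 genes was called. The block turned the 6 h change of Tyk2 over both doses to -0.12.

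Depth limits Ikbke, with 26 to 167 reads per library, and Trex1, with 58 to 211 shared reads. With 1 library at 2.5 and 6 h the intervals of most of the 10 genes reach a doubling or a halving.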

Other observations

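Traf3, the ubiquitin ligase that links MAVS to TBK1, was picked out of the pathway lists after its values were seen. The paper had already named Traf3 among its differentially expressed genes with higher values after 2.5 h of the same data. The DESeq2 calls below are therefore not an independent result. With 0.5 Gy Traf3 had 8.93 and 8.42 CPM before irradiation, 14.2 and 16.3 CPM after 1 h, 29.6 CPM after 2.5 h, 24.1 and 37.3 CPM after 4 h and 28.3 CPM after 6 h. With 0.2 Gy it had 11.8, 6.87, 21.7, 27.5 and 20.5 CPM in the order of the times. From 2.5 h on every library of either dose lay above every library at 0 and 1 h. The share of all genes that separate in this way was not counted, so this describes a gene picked for its values. The log2 fold change at 6 h with 0.5 Gy was 1.75 (SE 0.40, edgeR adjusted p = 0.603), and DESeq2 called Traf3 at 2.5, 4 and 6 h, with an adjusted p of 0.000673 at 4 h.

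Cish, a feedback inhibitor of cytokine receptors, had 26.2 and 32.6 CPM at 0 and 1 h of 0.2 Gy and 8.82, 6.16 and 9.39 CPM at 2.5, 4 and 6 h. With 0.5 Gy all 8 libraries lay between 6.27 and 12.9 CPM. DESeq2 called Cish for the late change with 0.2 Gy (adjusted p = 8.88e-07) and for the difference between doses (adjusted p = 1.22e-07), and edgeR for neither (adjusted p = 0.0755 and 0.0595). The gap was already there before irradiation, where the 0.5 Gy libraries had 7.35 and 6.31 CPM. The 0 and 1 h libraries of 0.2 Gy, 1 each, also had 42402 and 42612 genes with a count, against 35827 to 39035 in the others. Their part in these calls was not tested, and dose and generation cannot be told apart.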
